A study of Mus musculus with 12 samples.

Results

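Fibroblasts of the mammary glands were taken as the gland cells in which at least 3 of 5 genes were detected, with 1 UMI (a unique molecular identifier, which counts a captured RNA molecule once) or more each, and in which the 5 together made up at least 0.5% of the UMIs. The 5 genes were Dcn, Lum, Dpt, Mfap5 and Col3a1. The rule took 220 of the 3153 gland cells, and the other 2933 gland cells served for comparison. The series holds 21157 cells in all, measured by Drop-seq, a droplet method that reads the 3′ ends of RNA from single cells. The glands came from 2 tumor-bearing mice of the genotype MMTV-Cre; Brca1 flox/flox on a mixed C57BL/6 and 129/Sv background, and no wild type gland was analysed here. MG1 is the fourth pair of mammary glands of mouse 1 (2 libraries) and MG2 that of mouse 2 (2 libraries). The MMTV promoter drives Cre in mammary epithelium, so that fibroblasts are not the cells it was meant to recombine. The glands were digested with collagenase and hyaluronidase, and blood and endothelial cells were then depleted to enrich epithelium, so the fibroblasts are those that this enrichment left.

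Fibroblasts build and remodel the connective tissue around the ducts and fat of the mammary gland. They secrete fibrillar collagens, proteoglycans such as decorin and lumican that bind those fibrils, and the enzymes that crosslink and degrade them. They also release growth factors and chemokines that act on epithelium and immune cells, and mesenchymal tissues hold several fibroblast states, among them adventitial cells near vessels and contractile cells in wounds and tumors.

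The fibroblasts carried 737323 UMIs, and the 4 libraries MG1 replicate 1, MG1 replicate 2, MG2 replicate 1 and MG2 replicate 2 gave 77, 20, 58 and 65 of them. All values for 4 libraries below are in this order. The median was 2492 UMIs per fibroblast and 2677 per other gland cell. The 4 gland libraries shared 0 cell barcodes, and no pair agreed within sampling noise. MG1 replicate 2 was the smallest library, with 105 cells and 693333 UMIs, and the labels do not say whether libraries of 1 mouse were separate dissociations, so the spread between them may be technical. Brca1, the floxed gene, had 2 UMIs in 1 fibroblast of MG2 and 19 UMIs in 17 other gland cells, too few to read a deletion from, and 3′ counts do not show the loss of an inner exon.

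The 5 genes that chose the cells are given as a description only. Dcn (decorin) was detected in all 220 fibroblasts, but also in 34.8% of the other gland cells. It stood at 7022, 9249.5, 4468 and 6534 CPM in the fibroblasts of the 4 libraries. CPM are here UMI counts relative to all UMIs of the fibroblasts of a library, not scaled further. Dpt (dermatopontin, which binds decorin and collagen) was detected in 91.4% of fibroblasts and 3.10% of the others. Col3a1 (type III collagen) stood at 1924, 76.7, 5787 and 6773 CPM, so MG1 replicate 2 held the least by far. Lum (lumican) was detected in 67.3% and Mfap5, a microfibril protein, in 65.5% of fibroblasts. Of the members, 69 had all 5 genes, 98 had 4 and 53 had 3. The share of the 5 genes ranged from 0.51% to 4.63% of UMIs with a median of 1.25%. The members nearest the threshold stood at 0.51% and 0.539%, and the nearest cells outside it with 3 genes or more at 0.471% and 0.414%. Some cells outside the rule reached its share with fewer genes, 22 cells with 1 of the 5 genes and 22 with 2. They were counted among the other gland cells, where the highest share was 2.46%.

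Markers of other cell types, which the rule did not use, were low in these cells. The 6 endothelial markers summed to 24 UMIs in all fibroblasts, with Cldn5 at 0, and the 8 immune markers in the table to 5 UMIs, with Ptprc, Cd52, Tyrobp, Fcer1g, C1qa and Laptm5 at 0. Mural markers summed to 58 UMIs (Higd1b at 0), which is 0.00787% of fibroblast UMIs against 0.00366% in the other cells. Schwann cell markers summed to 55 UMIs (Sox10 at 0), 0.00746% against 0.00512%, and 47 of the 55 were in MG1 replicate 1. The 10 luminal markers were all detected and took 0.104% to 0.172% of fibroblast UMIs in the 4 libraries, against 1.23% to 1.48% in the other cells. The 10 milk and secretory markers took 0.0623% to 0.232%, against 0.597% to 1.80%. Over all libraries, the 7 hormone-sensing markers in the table took 0.0963% against 0.194%, and the 8 basal markers 0.0164% against 0.0558%. The hormone-sensing sum mixes directions, since Ly6a was higher in fibroblasts while Prlr, Pgr, Cited1 and Foxa1 were lower. In 10 of the 220 cells, 48 markers of other lineages together reached 1% of the UMIs. No doublet caller was run, and whether these are pairs of cells or free RNA was not tested.

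Fibroblasts made up 10.8% of the cells in MG1 replicate 1 (95% Clopper-Pearson interval 8.62% to 13.3%) and 19.0% in MG1 replicate 2 (12.0% to 27.9%). In MG2 they made up 4.90% (3.74% to 6.29%) and 5.64% (4.38% to 7.14%). The mean share was 14.9% ± 5.83 in MG1 and 5.27% ± 0.523 in MG2 (SD, n = 2). The libraries of the 2 mice did not overlap, but 2 against 2 libraries cannot go below p = 0.333 in a two-sided exact permutation test, and that is the value found. The intervals cover counting error only. When each cell was thinned to 1000 UMIs the difference (MG2 minus MG1) was -5.21 percentage points in place of -9.65, and since cells were enriched for epithelium, the shares do not measure the gland.

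Counts were then summed per library for the fibroblasts and for the other gland cells, and the 8 sums were compared with the library as a block. Of 5414 genes tested, 919 were higher in fibroblasts (17% of those tested) and 769 were lower (14.2%) at an adjusted p under 0.05. All 4 fibroblast sums lay above all 4 others for 15.4% of the genes and below them for 15.6%. Because the cells were chosen by genes that go with a cell type, these counts describe how regularly a difference recurred over libraries and are no test that fibroblasts differ. Log2 differences are therefore given with a standard error (SE) and without a p-value. Each SE, here and between the mice, is the absolute log2 difference divided by the square root of the test's F statistic. It is thus derived from the test and is not a separate estimate. Levels are TMM-scaled CPM (counts relative to the total of each sum), a depth scaling that allows a gene to be compared between sums but not with another gene. The median log2 difference over all genes tested was -0.07. The counts of each list below are to be read beside the 17% called higher and 14.2% called lower over all genes.

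**Figure D1:**
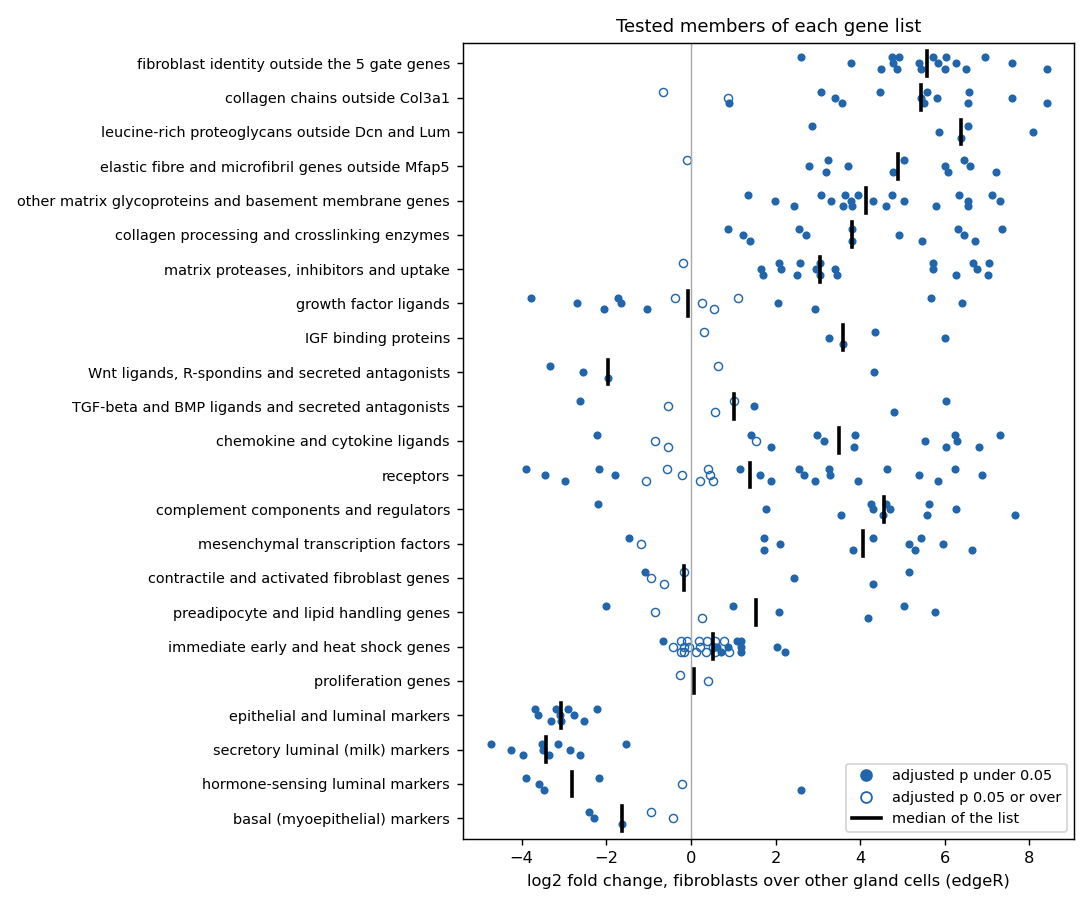
Log2 fold change of fibroblasts over other gland cells (x axis) for the tested members of each gene list (y axis). Each point is a gene, filled where its adjusted p is under 0.05, and the bar is the median of the list. The matrix lists have medians from 3.05 to 6.38, growth factor and Wnt genes lie on both sides of 0, and the luminal and milk markers lie below it.

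Identity genes outside the gate were high in every library. Of 20 listed genes, 18 passed the low-count filter and all 18 were called higher, beside 17% of all genes, with a median log2 difference of 5.58. Col1a2, a chain of type I collagen, stood at 4061, 836, 7746 and 10057 CPM in fibroblasts and at 55.7, 26.8, 17.6 and 13.5 CPM in the others. Its log2 difference was 7.60 ± 0.73 (SE). The lowest fibroblast sum, in MG1 replicate 2, was still above the highest of the others. Pdgfra, the receptor of platelet-derived growth factor that marks mesenchymal cells, stood at 219.7, 157, 390.2 and 404 CPM against 14.5, 12.5, 3.30 and 4.58 CPM (5.39 ± 0.52). Thy1, a surface protein of stromal cells, had a log2 difference of 6.50 ± 0.52 and Clec3b (tetranectin) of 6.95 ± 0.55. The smallest difference in the list was that of Ly6a, 2.60 ± 0.21, which luminal cells also express. Twist2 and Tcf21 did not pass the filter, and Tcf21, a mesenchymal transcription factor, had 19 UMIs in fibroblasts and 0 in the others. Against a floor of 3 UMIs over the other cells, this is at least 102-fold higher.

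Of 17 collagen chains besides Col3a1, 15 passed the filter, 13 were called higher and none lower, with a median log2 difference of 5.43. Col1a1, the partner of Col1a2, had the largest fold change of all genes ranked here (8.41 ± 0.80), with 1001, 94.1, 3430.2 and 4347 CPM in fibroblasts and 13.3, 5.37, 3.30 and 5.04 CPM in the others. It was lowest in MG1 replicate 2 and highest in the MG2 libraries. Col5a2, which starts fibril assembly, differed by 6.54 ± 0.52, and Col6a1 and Col6a2, chains of the microfibrillar type VI collagen, by 5.58 ± 0.29 and 5.81 ± 0.49. The basement membrane chains Col4a1 and Col4a2 differed by less, 3.58 ± 0.32 and 3.41 ± 0.32. Against 107 gland cells with 2 or more endothelial markers, a class added after seeing the data, Col4a2 had a log2 difference near 0 (-0.031). Col8a1 (-0.65 ± 0.43) and Col18a1 (0.88 ± 0.41) did not pass the threshold.

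The small leucine-rich proteoglycans bind collagen fibrils and set their diameter. Of 9 listed besides Dcn and Lum, 7 had a UMI in fibroblasts, 5 passed the filter and all 5 were called higher. Bgn (biglycan) stood at 496, 575, 1943 and 2904 CPM against 37.0, 28.6, 16.5 and 11.7 CPM, and Podn (podocan) at 126, 73.2, 439 and 469.7 CPM against 1.91, 1.79, 0.439 and 1.15 CPM. Both were higher in the MG2 libraries. Ogn (osteoglycin) and Aspn (asporin) were higher in the MG1 libraries, at 1668, 669, 374 and 543 CPM and 334, 543, 48.8 and 59.5 CPM. Of the 16 elastic fibre genes, 12 passed the filter and 11 were called higher, among them the microfibril gene Fbn1 (6.46 ± 0.37) and Efemp1 (6.60 ± 0.50). Ltbp3, which holds latent TGF-beta in the matrix, did not differ past the threshold (-0.09 ± 0.31).

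**Figure D2:**
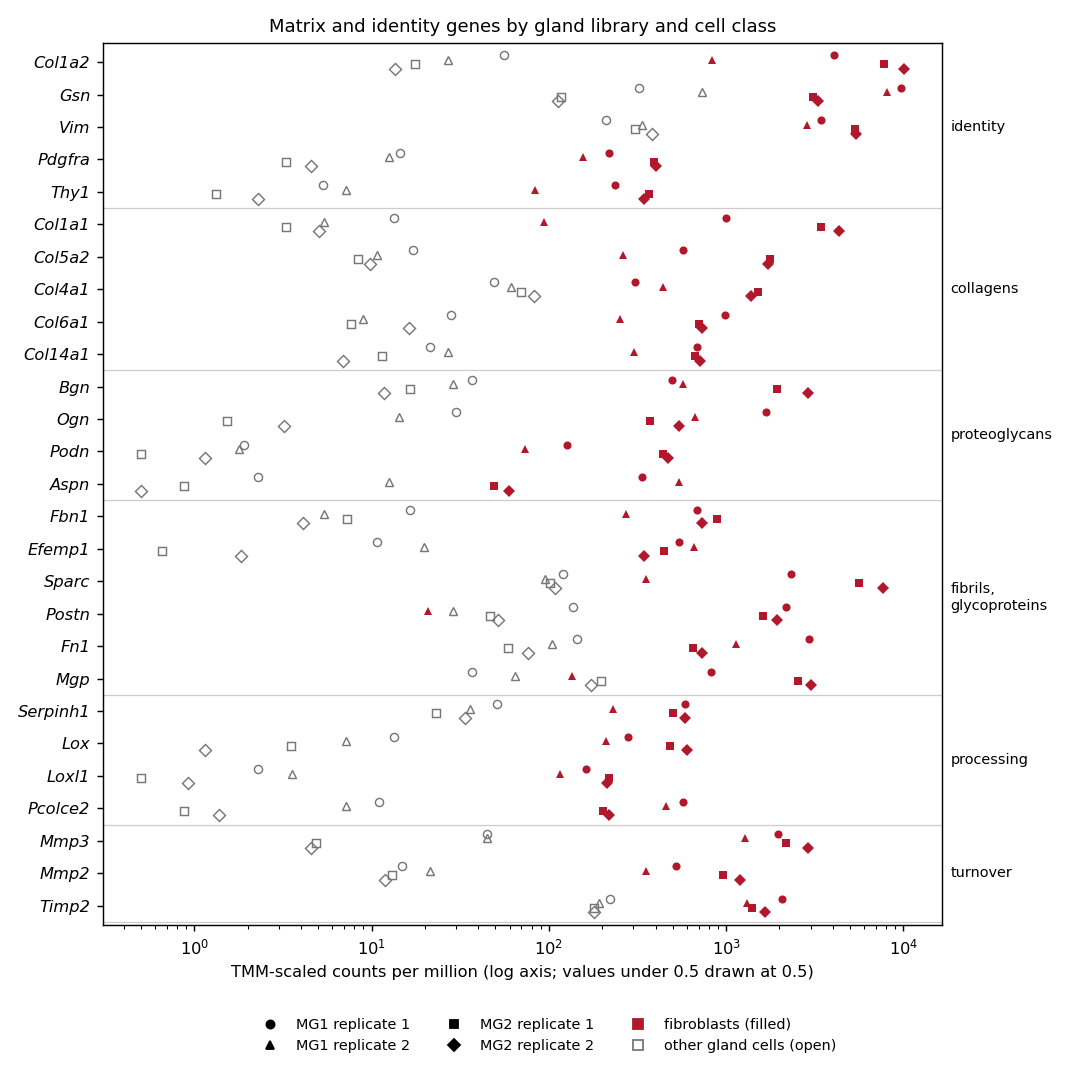
TMM-scaled CPM (x axis, log scale) of identity and matrix genes (y axis) in fibroblasts (filled) and other gland cells (open), with a symbol for each of the 4 libraries. Fibroblast sums lie to the right of the other sums for each gene but Postn and Mgp, where the classes overlap; the Postn sum of MG1 replicate 2 (20.9 CPM) lies below those of the others.

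Matrix glycoproteins were the largest list in which each tested gene was called: 20 of 23 passed the filter and all 20 were called higher. For 17 of the 20, all 4 fibroblast sums lay above all 4 others, beside 15.4% of all genes. Postn, Mgp and Tnc overlapped between the classes. Sparc, which binds collagen, stood at 2311, 355, 5625 and 7642 CPM against 120.5, 94.9, 101 and 108 CPM. Its level in MG1 replicate 2 was a small part of that in the other libraries. Postn (periostin), a protein of remodelling matrix, stood at 2185, 20.9, 1618 and 1939 CPM, so that MG1 replicate 2, with 2 UMIs, lay below all 4 sums of the other cells. Fn1 (fibronectin) was higher in the MG1 libraries, at 2950.1, 1139, 650.3 and 734 CPM. Tnxb (tenascin X) differed by 7.30 ± 0.45 and the basement membrane gene Nid1 by 5.03 ± 0.27.

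Genes that process collagen were higher as well. Of 15 listed, 13 passed the filter and all 13 were called higher. Serpinh1, the collagen chaperone, stood at 590.0, 229.9, 504 and 589 CPM against 50.7, 35.8, 23.1 and 33.4 CPM. The crosslinking enzymes Lox and Loxl1 differed by 6.31 ± 0.61 and 7.35 ± 0.62, and Adamts2, which trims procollagen, by 6.71 ± 0.52. P4hb, a subunit of prolyl hydroxylase that all secretory cells use, differed least (0.88 ± 0.22).

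Among proteases, their inhibitors and uptake receptors, 19 of 22 passed the filter and 18 were called higher. Mmp3 (stromelysin) stood at 1974, 1285, 2187 and 2898 CPM against 44.6, 44.7, 4.83 and 4.58 CPM (7.04 ± 0.75). The gelatinase Mmp2 differed by 5.72 ± 0.38, and Timp2, which inhibits it, by 3.04 ± 0.18. Plaur, the urokinase receptor, did not pass the threshold (-0.20 ± 0.35). Mrc2, the collagen uptake receptor that the study followed in tumors, did not pass the filter. It had 36 UMIs in 27 fibroblasts, which is 12.3% of them, and 4 UMIs in 4 of the 2933 other cells, at median depths of 2492 and 2677 UMIs.

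Chemokines and cytokines recruit and instruct immune cells. Of 26 listed, 16 passed the filter, 12 were called higher and 1 was lower. Cxcl1, which attracts neutrophils, stood at 4053, 7451, 8454 and 11797 CPM in fibroblasts and 436, 569, 515 and 513 CPM in the others. Ccl2 and Ccl7, which attract monocytes, differed by 6.81 ± 0.56 and 6.28 ± 0.68, and Il6 by 5.53 ± 0.35, with 549, 1233, 2105 and 2679.5 CPM. These genes were present in all 4 fibroblast sums and were higher in both MG2 libraries than in MG1 for Cxcl1, Ccl2 and Il6. Cxcl2 stood at 269, 1630.3, 4519 and 6040.5 CPM against 268, 599.6, 589.7 and 829 CPM, so that in MG1 replicate 1 the classes were level. Csf1, the growth factor of macrophages, differed by 2.97 ± 0.20, and Cxcl12, which binds Cxcr4, by 3.86 ± 0.24. Cxcl13, which attracts B cells, was uneven, at 1042, 5737, 764 and 298 CPM. Cx3cl1 was lower in fibroblasts (-2.23 ± 0.55). Il33 (1.53 ± 0.59) and Lif (-0.55 ± 0.59) did not pass the threshold.

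The promoters of 4 of these genes are shown because they hold the letters of an NF-kB site, the motif of the transcription factor that drives many inflammatory genes. The motif searched was 3 G, any 2 bases, 3 T and 2 C in a row, on both strands, in the 250 bases before the start of the RefSeq gene (GRCm38.p6). It was found in 1.41% of 32851 promoters of this length and in 5 of the 20 promoters that matched 18 of the 26 genes (Cxcl1, Cxcl2, Il6, Csf1 and Ccl20). The matches are in capitals, on the strand of the gene. A match is a description of the letters and says nothing of binding in these cells.
Cxcl1 promoter, chr5:90890995-90891244, plus strand: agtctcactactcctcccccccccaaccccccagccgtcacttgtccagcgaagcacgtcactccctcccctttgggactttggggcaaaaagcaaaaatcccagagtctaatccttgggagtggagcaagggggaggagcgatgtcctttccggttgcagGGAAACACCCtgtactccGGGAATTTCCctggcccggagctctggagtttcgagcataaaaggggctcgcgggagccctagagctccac
Cxcl2 promoter, chr5:90903649-90903898, plus strand: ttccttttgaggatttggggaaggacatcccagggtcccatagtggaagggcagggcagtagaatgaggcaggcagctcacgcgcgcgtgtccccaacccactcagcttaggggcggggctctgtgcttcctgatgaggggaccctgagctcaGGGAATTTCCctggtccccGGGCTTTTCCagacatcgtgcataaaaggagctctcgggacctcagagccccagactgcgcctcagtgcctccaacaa
Il6 promoter, chr5:30012864-30013113, plus strand: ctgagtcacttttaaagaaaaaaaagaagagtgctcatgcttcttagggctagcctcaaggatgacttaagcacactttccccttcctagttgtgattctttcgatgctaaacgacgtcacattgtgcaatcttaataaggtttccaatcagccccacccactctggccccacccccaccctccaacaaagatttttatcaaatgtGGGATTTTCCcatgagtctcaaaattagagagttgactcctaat
Csf1 promoter, chr3:107760470-107760719, minus strand: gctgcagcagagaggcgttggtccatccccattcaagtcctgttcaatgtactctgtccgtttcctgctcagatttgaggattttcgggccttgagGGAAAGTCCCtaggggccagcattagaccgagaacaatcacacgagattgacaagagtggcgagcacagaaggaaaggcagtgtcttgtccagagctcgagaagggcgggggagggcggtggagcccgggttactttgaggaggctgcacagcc
The Cxcl1 promoter held 2 matches, the first bases of which lie 89 and 71 bases before the start, and Cxcl2 held 2, at 97 and 78 bases. Il6 held 1 match at 44 bases and Csf1 1 at 154 bases. No collagen promoter of the 15 that matched held the motif, as in most other lists. At 1.41% of all promoters, a list of this size cannot show a lack of it. Immediate early genes, many of which are induced by dissociation, stood beside these chemokines. Of 28 listed, 27 passed the filter, 9 were called higher and 1 lower, beside 17% and 14.2% of all genes. Their median log2 difference was 0.53. Egr1 differed by 2.23 ± 0.24 and Dusp1 by 2.03 ± 0.21, while Jun was lower (-0.67 ± 0.16) and Fos (-0.22 ± 0.18) did not pass the threshold. The part of the digestion in the levels of either list was not tested.

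**Figure D3:**
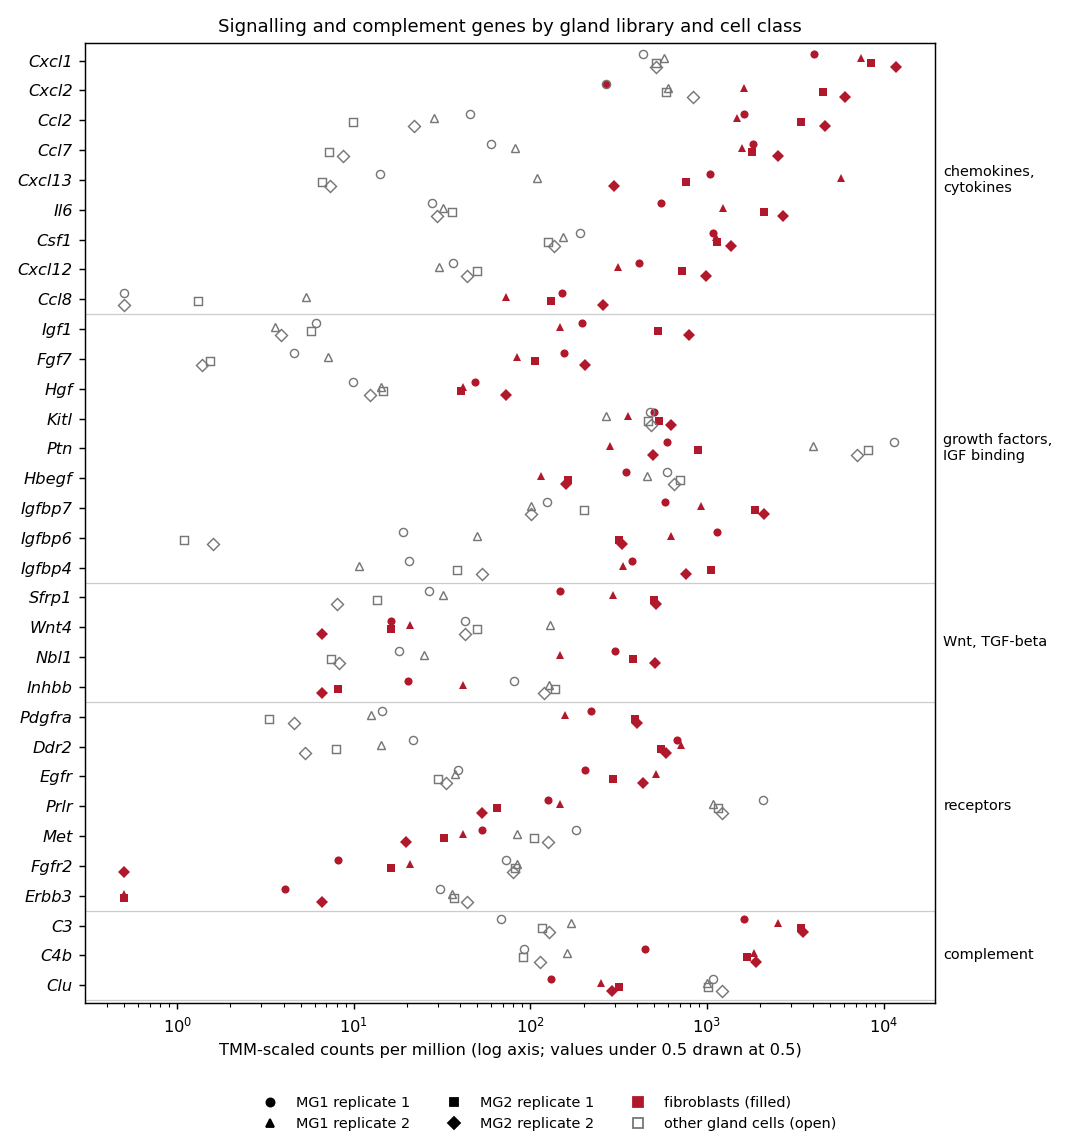
TMM-scaled CPM (x axis, log scale) of signalling and complement genes (y axis) in fibroblasts (filled) and other gland cells (open), with a symbol for each of the 4 libraries. Cxcl1, Ccl2, Il6, Igf1 and C3 lie to the right in fibroblasts, Ptn, Prlr, Met and Clu to the left, and Kitl overlaps.

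Complement components were higher in fibroblasts with 1 exception. Of 13 genes in the table, 12 passed the filter and 11 were called higher. C3, the central component, stood at 1628, 2519, 3430.2 and 3493 CPM against 68.3, 170.0, 117 and 128 CPM. The inhibitor Serping1 differed by 6.26 ± 0.71, and C1s1 and C1ra, the proteases of the first complex, by 4.30 ± 0.23 and 4.60 ± 0.32. Clu (clusterin), an inhibitor of the terminal complex that secretory epithelium makes, was lower, at 130.2, 251, 317 and 291 CPM against 1078, 995, 1013 and 1210 CPM.

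Growth factor ligands were divided between the classes. Of 27 in the table, 14 passed the filter, 4 were called higher and 6 lower, beside 17% and 14.2% of all genes. Igf1, a systemic and local growth factor, stood at 195, 146, 528 and 787 CPM against 6.10, 3.58, 5.71 and 3.89 CPM (6.41 ± 0.41). Fgf7, a ligand of epithelial Fgfr2, differed by 5.68 ± 0.51 and Hgf, the ligand of Met, by 2.06 ± 0.40. Ptn (pleiotrophin) was lower by far, at 594, 282, 886 and 496 CPM against 11496, 3968, 8173 and 7067 CPM, and Hbegf (-1.65 ± 0.26), Pdgfa (-1.71 ± 0.36) and Fgf1 (-2.68 ± 0.66) were lower. Kitl (0.26 ± 0.17) and Vegfa (0.54 ± 0.28) did not pass the threshold.

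The IGF binding proteins hold or release Igf1 outside the cell. Of 6 listed, 5 passed the filter and 4 were called higher: Igfbp6 (6.00 ± 0.58), Igfbp4 (4.34 ± 0.24), Igfbp3 (3.59 ± 0.37) and Igfbp7 (3.27 ± 0.31). Igfbp3 was highest in MG1 replicate 2, with 191, 2466, 398 and 529 CPM. Igfbp5 overlapped between the classes (0.30 ± 0.34). Of 16 Wnt pathway genes in the table, 5 passed the filter. The antagonist Sfrp1 was called higher (4.32 ± 0.53), and the ligands Wnt4, Wnt5b and Wnt7b were lower (-1.97 ± 0.42, -3.33 ± 0.69 and -2.54 ± 0.67). Sfrp4, a further antagonist, did not pass the filter, with 192 UMIs in fibroblasts and 11 in the others. Of 19 TGF-beta and BMP genes, 7 passed, and over all genes 17% were called higher and 14.2% lower. Fstl1 (6.03 ± 0.32), the BMP antagonist Nbl1 (4.80 ± 0.47) and the ligand Tgfb2 (1.48 ± 0.34) were called higher and Inhbb, an activin subunit, lower (-2.61 ± 0.41).

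Receptors of the same pathways lay in both classes. Of 30 listed, 26 passed the filter, 14 were called higher and 5 lower. Besides Pdgfra these were Ddr2, a receptor of collagen (5.84 ± 0.31), Fgfr1 (2.55 ± 0.18), Egfr (3.26 ± 0.26), Il1r1 (3.29 ± 0.26) and Tgfbr2 (2.67 ± 0.26). The receptors called lower were Prlr, the prolactin receptor (126, 146, 65.0 and 52.9 CPM against 2065, 1085, 1163 and 1223 CPM), Met (-1.80 ± 0.31), Fgfr2 (-2.98 ± 0.49), Erbb3 (-3.46 ± 0.68) and Pgr (-2.18 ± 0.43). Thus Hgf and Fgf7 were higher in fibroblasts while Met and Fgfr2 were higher in the other cells. The estrogen receptor Esr1 did not pass the threshold (-0.21 ± 0.51).

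Of 29 mesenchymal transcription factors in the table, 12 passed the filter, 10 were called higher and 1 lower. Zeb2 (5.14 ± 0.31), Ebf1 (5.30 ± 0.33) and Prrx1 (5.45 ± 0.43) were low in the other cells. Ebf1 stood at 659, 805, 244 and 304 CPM. Osr1, a factor of fibroadipogenic precursors, differed by 4.30 ± 0.41, and Runx1, which mammary epithelium uses, was lower (-1.46 ± 0.23). Snai2 and Gli3 did not pass the filter.

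Contractile genes were not raised as a list. Of 14 contractile and activated fibroblast genes, 7 passed the filter, 3 were called higher (Fap, Postn and Tnc) and Tpm2 lower (-1.08 ± 0.34). Over all genes 17% were called higher and 14.2% lower. Postn and Tnc overlapped between the classes, and in MG1 Tnc was near its level in the other cells (values below). Fap, a protease of activated fibroblasts, stood at 65.1, 52.3, 48.8 and 79.4 CPM, while Acta2, the actin of smooth muscle, stood at 32.6, 20.9, 106 and 26.5 CPM against 64.4, 93.1, 92.1 and 99.0 CPM (-0.94 ± 0.38) and did not pass. Of 12 preadipocyte and lipid genes, 8 passed, 5 were called higher and 1 lower. Apod (apolipoprotein D) stood at 1115, 930.1, 4454 and 6232 CPM against 47.7, 35.8, 47.0 and 54.1 CPM, and Lpl, which releases fatty acids from lipoproteins, differed by 4.18 ± 0.56. Plin2, which coats lipid droplets, was lower (-2.01 ± 0.22). None of the 3 mature adipocyte genes in the table passed the filter, and Car3 had 0 UMIs in fibroblasts and 34 in the others. Of 18 proliferation genes, 2 passed and neither was called. In all, 4 of 220 fibroblasts had 3 or more of 12 mitotic genes, 1 in MG2 replicate 1 and 3 in MG2 replicate 2, and 206 had none.

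Besides the listed genes, the 10 largest differences in the higher direction, among genes with 20 UMIs or more and no overlap, included Prg4 (lubricin, 8.13 ± 0.76), Cadm3 (7.91 ± 0.62), Lgi2 (7.66 ± 0.59), the complement component C7 (7.66 ± 0.74), Cpxm1 (7.46 ± 0.57) and Pi16 (7.43 ± 0.54), a marker of adventitial fibroblasts. In the lower direction 5 of the 10 had 0 UMIs in all fibroblasts, so their folds are bounds against 3 UMIs over the class. Mtmr7 was at least 18.9-fold lower, Tspan1 at least 16.1-fold, Pof1b at least 12.2-fold, Sox10 at least 10.6-fold and Grk3 at least 7.19-fold. Sox10 is known from neural crest and is also used by mammary progenitors. Esrp1, the epithelial splicing factor, differed by -5.16 ± 0.76 and the receptor Kit, whose ligand Kitl did not pass the threshold, by -4.99 ± 0.73.

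The comparison of MG2 with MG1 fibroblasts is not the contrast that chose the cells, although the gate chose the cells of both groups and its gene Col3a1 differed between the libraries. Its groups are 2 libraries of 1 mouse each. Mouse, dissection and library preparation cannot be told apart here, and the p-values cover libraries and not mice. Of 2626 genes tested, 6 were higher in MG2 (0.228%) and 2 lower (0.0762%) at an adjusted p under 0.05 by edgeR, and 360 had an unadjusted p under 0.05. Ifi202b, an interferon-inducible gene on chromosome 1 (173962568 to 173982744, minus strand, GRCm38), had 1, 0, 65 and 87 UMIs, or 4.08, 0, 517 and 574 CPM (log2 difference 7.20 ± 0.63, adjusted p = 0.0185). Its neighbour Ifi203 (173920407 to 173942672) ran the other way, at 1755, 2790.3, 175 and 106 CPM (-4.02 ± 0.41, adjusted p = 0.0188). These 2 genes are members of 1 family, and how reads were divided among close paralogs is not stated.

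Tnc (tenascin C, a protein of remodelling matrix, 63959785 to 64047015 on chromosome 4) stood at 16.3, 21.4, 302 and 330.0 CPM (4.08 ± 0.46, adjusted p = 0.0245). Apod stood at 1119, 951, 4356 and 6217 CPM (2.35 ± 0.32, adjusted p = 0.0445), and Peg3, an imprinted zinc finger gene, at 16.3, 0, 349.7 and 304 CPM (4.75 ± 0.63, adjusted p = 0.0445). In each of the 3 both MG2 libraries lay above both MG1 libraries. Rps13-ps1, a processed pseudogene on chromosome 8, stood at 4.08, 0, 326 and 343 CPM (6.49 ± 0.64, adjusted p = 0.0188), and Gm47283, a gene model annotated on chromosome Y, at 36.7, 53.5, 429 and 554 CPM (3.50 ± 0.43, adjusted p = 0.0384). Reads of both may belong to near-identical copies. Myoc (myocilin) was lower in MG2, at 457, 246, 23.8 and 13.2 CPM (-4.25 ± 0.58, adjusted p = 0.0445), which rests on 112, 23, 3 and 2 UMIs. Without MG2 replicate 1 edgeR called 0 higher and 0 lower of 3622 tested (165 at an unadjusted p under 0.05), and without MG1 replicate 1 230 were higher and 266 lower. Without MG1 replicate 2 the counts were 149 and 142, and without MG2 replicate 2 they were 28 and 31. DESeq2 called 31 higher and 15 lower.

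The other gland cells show which of these differences were shared. Ifi202b stood at 6.48, 0, 88.1 and 79.5 CPM in them, Rps13-ps1 at 1.14, 12.5, 295 and 276 CPM, Gm47283 at 30.9, 53.7, 205 and 338 CPM and Ifi203 at 49.6, 136, 18.0 and 15.6 CPM, so all 4 ran the same way between the mice outside the fibroblasts. Tnc did so too, at 19.4, 14.3, 32.1 and 31.8 CPM in the other cells, and Apod overlapped between the mice there, at 47.7, 35.8, 47.0 and 54.1 CPM. Peg3 had 54, 16, 194 and 164 of 2800789, 576029, 4279549 and 4050123 UMIs in the other cells, so that relative to all UMIs it also ran the same way. The test of the difference between the classes did not pass for the first 4 (adjusted p = 0.31, 0.969, 0.766 and 0.0959). It passed for Tnc (3.34 ± 0.65, adjusted p = 0.0285), Apod (2.11 ± 0.32, adjusted p = 0.00733) and Peg3 (4.03 ± 0.74, adjusted p = 0.021). These calls rested on the full set of libraries: the adjusted p by edgeR was 0.0512 for Apod and 0.0531 for Peg3 without MG2 replicate 1, 0.311 and 0.205 without MG2 replicate 2, and 0.161 for Tnc without MG1 replicate 1, and without either MG2 library Tnc did not pass the filter.

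Matrix lists differed in how far they moved between the mice. Of 14 collagen chains tested, 13 had a positive log2 difference (MG2 over MG1) with a median of 1.63, none was called, and in 11 both MG2 libraries lay above both MG1 libraries, which 23.2% of all genes did. Over all genes the median was -0.05. Col1a1 stood at 1004, 96.2, 3354 and 4336 CPM (2.73 ± 0.81, adjusted p = 0.226) and Col1a2 differed by 1.82 ± 0.64 (adjusted p = 0.284). MG1 replicate 2, with 20 fibroblasts, held the lowest level of both, and leaving out a library moved Col1a1 between 1.95 and 5.36 and Col1a2 between 1.12 and 3.41. Elastic fibre genes were positive in 12 of 13 (median 1.02) and matrix turnover genes in 17 of 20 (median 0.90), with none called. Matrix glycoproteins were positive in 12 of 19 (median 0.33, with Tnc called), proteoglycans in 3 of 5 (median 0.38) and collagen processing genes in 9 of 12 (median 0.26). Bgn (2.15 ± 0.33, adjusted p = 0.055) and Mmp19 (2.55 ± 0.40, adjusted p = 0.055) were among the genes nearest to the threshold on the higher side, and Aspn (-3.00 ± 0.46, adjusted p = 0.055) on the lower side. Gsn (gelsolin) was 9737, 8232, 3020.3 and 3293 CPM (-1.51 ± 0.28, adjusted p = 0.0925) and Cxcl13 1045, 5869, 747 and 297 CPM (-2.72 ± 0.81, adjusted p = 0.227). Of 12 chemokine and cytokine genes tested 10 had a positive log2 difference and none was called, with Cxcl2 at 2.47 ± 0.74 (adjusted p = 0.227).

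**Figure D4:**
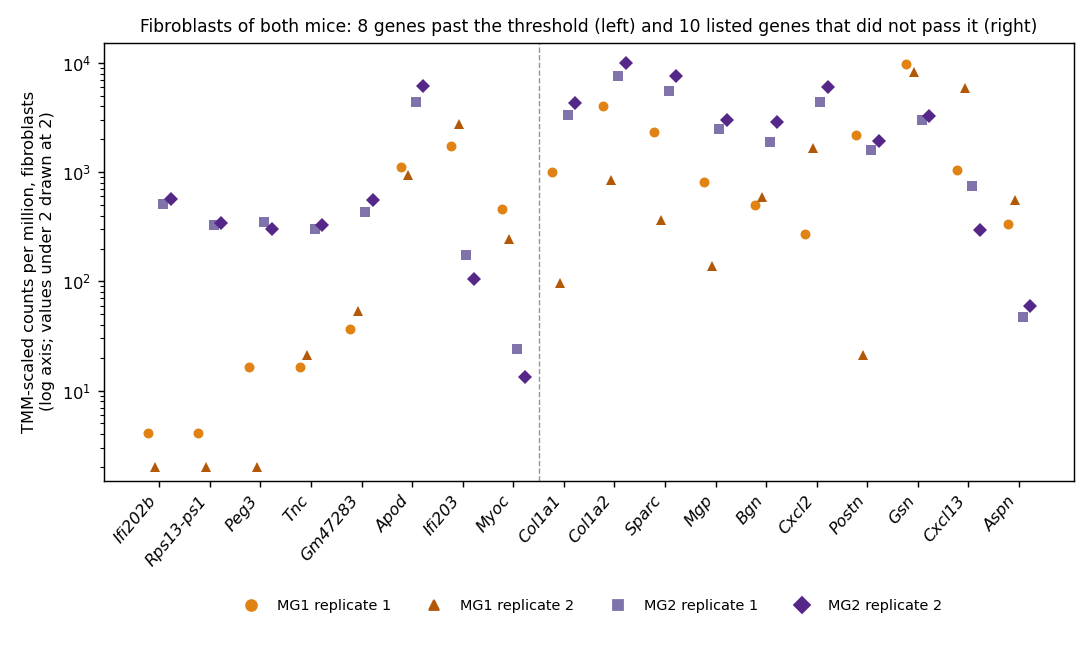
TMM-scaled CPM in fibroblasts (y axis, log scale) of the 8 genes past the threshold between the mice and of 10 listed genes that did not pass it (x axis), with a point for each library. Ifi202b is at 0 or 4.08 CPM in MG1 and above 500 in MG2, and the 2 MG1 libraries lie far apart for Col1a1, Sparc and Postn.

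The fibroblast contrast (fibroblasts over other cells) differed between the mice for 46 of 5414 genes (0.85%), of which 45 had the larger contrast in MG2 (0.831%). For 13 of the 45 the MG2 fibroblast sums did not both lie above those of MG1, while both MG2 sums of the other cells lay below both MG1 sums. Ccl7, Clec3b, Has1, Lama2 and Pi16 are among them. Clec3b stood at 1339, 1181, 919 and 899.8 CPM in fibroblasts and 19.8, 34.0, 2.42 and 2.29 CPM in the others, and Ccl7 at 1827, 1588, 1788 and 2534 CPM and 59.9, 82.3, 7.25 and 8.71 CPM. Transcripts of these 13 genes were thus more frequent in the other cells of MG1. For 9 of the 45, Apod, Cxcl2, Cxcl14, Sparc, Prg4 and Tnc among them, both MG2 fibroblast sums lay above those of MG1, while the MG2 sums of the other cells did not both lie below those of MG1. For 23, Col1a1, Col1a2, Bgn, Ccl2, Mmp3 and Smoc2 among them, both held. Over all genes tested, both MG2 fibroblast sums lay above MG1 in 21.4%, and both MG2 sums of the other cells lay below MG1 in 25.5%. The looser gate took 101, 26, 65 and 73 cells in place of 77, 20, 58 and 65. Without MG2 replicate 2, 9 genes were called in place of 46, and without MG1 replicate 1, 162 had the larger contrast in MG2 and 82 the smaller.

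Clustering of the 220 fibroblasts on genes other than the gate genes gave 6 clusters of 84, 62, 25, 19, 16 and 14 cells. They are numbered by size and given as a description, with no test, since the genes that define a cluster also made it. The share of all genes at least 2-fold higher in a cluster was not computed. Counts of list members at least 2-fold higher, given below, are therefore no sign that a list is enriched in a cluster. The clusters followed libraries: 83 of the 84 cells of cluster 1 came from MG2, all 25 of cluster 3 and 17 of 19 of cluster 4 from MG1 replicate 1. With 1 library behind a cluster, the cluster may be that library and no type, so none is given a cell type name. Median depth was 2036 UMIs in cluster 1 and 3211 in cluster 2. Clusters were also compared with the best matching cluster of each other setting (Jaccard index, shared cells over all cells of both). The index was 0.484 to 0.548 for cluster 2 and 0.176 to 1 for cluster 4. It was 0.571 to 0.966 for cluster 1, 0.148 to 0.941 for cluster 5 and 0.13 to 0.571 for cluster 6.

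Cluster 1 was led by Peg3, Prg4, Kcne4, Lbp, Cyp7b1, Il33, Apod and Smoc2. Prg4 stood at 4778 CPM in it and 703 in the other fibroblasts (unscaled), and Il33, an alarmin cytokine, at 572 and 104. In it, 5 of the 8 inflammatory markers (Cxcl1, Cxcl2, Ccl2, Il6 and Lif) were at least 2-fold higher, and the list took 2.51% of its UMIs against 1.1% elsewhere. Of the 8 F3 stromal markers 4 were at least 2-fold higher too, F3 itself among them (0.441% of UMIs against 0.196%). So were 6 of the 12 parenchymal fibroblast and preadipocyte markers (0.577% against 0.293%). The 4 cells with 3 or more mitotic genes all lay in this cluster. Cluster 2 held 28, 18, 8 and 8 cells of the 4 libraries and was led by Myoc, Cxcl13, Nova1, Pcsk6, Aspn, Fndc1, the milk gene Csn1s2a, Igfbp5 and Dpp4. Cxcl13 stood at 3085 CPM and 284 outside it, detected in 54.8% and 12.7% of cells. Of 12 adventitial markers 5 were at least 2-fold higher in it (Dpp4, Sema3c, Efhd1, Fndc1 and Opcml), while Pi16 was detected in 72.6% of cluster 2 and 59.5% of cluster 1. Of 8 basal epithelial markers 5 were also at least 2-fold higher in it (Krt5, Krt14, Krt17, Cnn1 and Mylk), and the list took 0.0355% of its UMIs against 0.00589% elsewhere. Their part in the cluster was not tested. Collagen chains took 0.429% of the UMIs of cluster 2 against 1.502% elsewhere.

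Cluster 3 was led by Col6a5 and Col6a6, chains of type VI collagen, with Car4, Bco1, Smpd3, Ltc4s and Mrgprg. Col6a5 stood at 2945 CPM against 7.83 and was detected in 24 of the 25 cells. In the whole of MG1 replicate 1 it had 294 UMIs in 26 fibroblasts and 64 UMIs in 25 cells outside the gate, and in the 3 other gland libraries 4 UMIs in all. Postn was detected in 96% of cluster 3. Of the 12 adventitial markers, 4 were at least 2-fold higher in cluster 3 too, Sema3c and Cd55 among them. That list took 0.401% of the UMIs of cluster 3 against 0.243% elsewhere, and 0.365% of those of cluster 2 against 0.208%. Cluster 3 was the same set of cells at both other resolutions and with 1000 variable genes. Cluster 4 was led by Id4, Nmb, Fmo2, Gm4841, Pid1, Tifa, Gbp2b, Tgfbi, Dtx3l and C7, with 17 UMIs of Id4 and 8 of Nmb in it. In cluster 4, 5 of the 8 F3 stromal markers were at least 2-fold higher (Fmo2, Clec11a, Gdf10, Inmt and Vit), while F3 itself was not. Of 28 immediate early and heat shock genes 8 were at least 2-fold higher too, among them Jun, Junb, Egr1, Hspa1a and Hspa1b, and the list took 2.72% of its UMIs against 1.63% elsewhere. The part of the digestion in this cluster was not tested. Fmo2 stood at 1206 CPM against 134. Cxcl12 was detected in 73.7% of cluster 4 and in 20% of cluster 3.

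Cluster 5 was led by milk and secretory genes (Csn3, Ltf, Csn2, Plet1 and Wfdc18), and all 10 luminal markers were at least 2-fold higher in it. These took 0.639% of its UMIs against 0.104% elsewhere, and 8 of its 16 cells were among the 10 with 1% or more of other lineage markers. Its cells had a median of 3529 UMIs, 1.34 times that of their library. Whether they are doublets was not tested.

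Cluster 6 drew from all libraries, with 3, 2, 4 and 5 cells, and was led by Col7a1, Crabp1, Igfbp2, Lrrc15, Tnc, Spon1, Hmcn1, Col15a1 and Postn. Of 17 collagen chains 14 were at least 2-fold higher in it, and the chains took 3.68% of its UMIs against 0.952% elsewhere. Of 14 contractile and activated genes 10 were at least 2-fold higher, among them Acta2, Tagln, Lrrc15 and Cthrc1. The inflammatory markers took 0.178% of its UMIs against 1.603% elsewhere. Its leading genes were uneven between the mice: Col7a1 had 51 UMIs in the 9 MG2 cells and 2 in the 5 MG1 cells, and Lrrc15 17 and 0. No other clustering setting gave the same set of cells, and the best overlap (Jaccard index) was 0.571. Of 362 tumor cells that pass the same gate, 225 had a UMI of Crabp1, against 19 of the 220 gland fibroblasts, and 175 had a UMI of Lrrc15, against 9. Of these tumor cells, 259 came from MT2, the tumor of mouse 2, and 103 from MT1, that of mouse 1. Tumor and gland libraries differ in tissue, and no test was made of this. Whether the gated cells of the tumors are fibroblasts or mesenchymal tumor cells was not tested, and their depth was not compared.

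**Figure D5:**
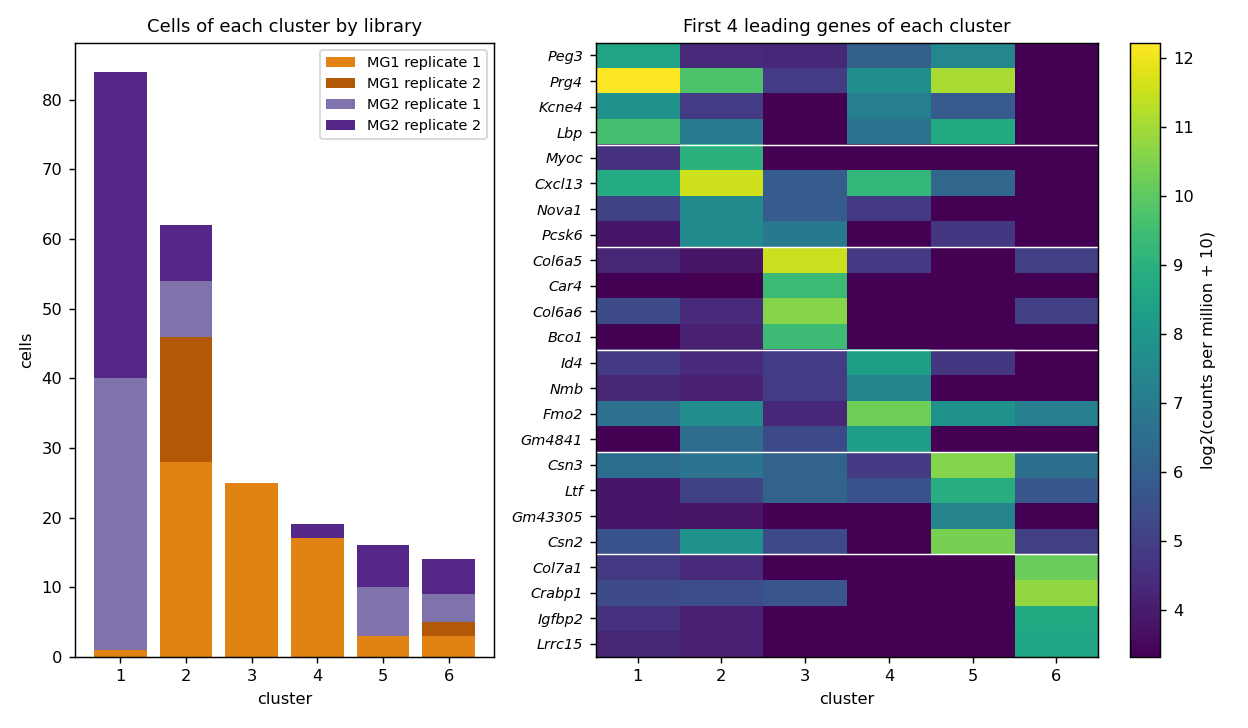
Left, number of fibroblasts (y axis) in each of the 6 clusters (x axis), with colours for the 4 libraries. Right, log2(CPM + 10) of the first 4 leading genes of each cluster (rows) in each cluster (columns). Cluster 1 is made of MG2 cells and cluster 3 of MG1 replicate 1, and each block of 4 genes is brightest in its own cluster.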

How the data were processed

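Drop-seq libraries of mammary glands from 2 mice were analysed, 2 libraries each. The authors deposited 1 matrix of UMI counts, not normalized, for 21743 genes in 21157 cells, which they made with Drop-seq tools and STAR on GRCm38.p6, after removing cells with few genes or extreme mitochondrial shares. How strand and multiply mapping reads were treated is not given in the sources used here. The members and gene lists were chosen with earlier results of these data known.

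Counts were summed per library for fibroblasts and for other gland cells, without the 5 gate genes. The sums were compared with the quasi-likelihood test of edgeR 4.0.16 in R 4.3.3 (TMM scaling, filterByExpr, Benjamini-Hochberg adjustment, threshold 0.05), with the library as a block for the cell classes. Fibroblast depth per library ranged from 117304 to 293667 UMIs. The fibroblast comparison used the contrast that chose the cells, so no p-value of it is given. The test script was checked on simulated data. Replicate numbers are accession order and pair nothing. Cells were clustered with scanpy 1.11.5 (Leiden, resolution 0.6, 2000 variable genes, 15 components, 15 neighbours). No doublet caller was run.

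Genes were named from the lists, and as the 10 largest changes in each direction with 20 or more UMIs and no overlap between the classes. A cluster was described by the 10 genes with the highest log2 fold (pseudocount 10 CPM) among those in at least 25% of its cells. A few listed genes are counted in their lists but not reported here by name. The few genes named beyond these rules were chosen after their values were seen. Alternatives were RLE scaling, DESeq2 1.42.0, no low-count filter, a stricter gate (4 genes and 1%), a looser gate (2 genes and 0.25%), members without 1% of other markers, thinning to 1000 UMIs, other cluster settings and leaving out each library.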

Additional observations from a re-analysis of the deposited data

Results flagged for a closer look

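The fibroblast contrast of the 31 listed genes given here differed between the mice by the test of the difference itself (edgeR, adjusted p under 0.05 over 5414 genes). The value given for each gene is the log2 contrast of fibroblasts over other gland cells in MG2 minus that in MG1. Each contrast comes from 2 libraries of 1 mouse, so mouse and library preparation cannot be told apart. Of all 46 genes called, 9 were called without MG2 replicate 2, 31 without MG2 replicate 1, 39 without MG1 replicate 1 and 45 without MG1 replicate 2. Values moved as well, with Sparc between 1.64 and 4.02 and Penk between 3.17 and 6.57 when a library was left out.

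Among collagens and matrix genes the differences were Col1a1 3.86, Col1a2 3.32, Col5a2 2.62, Col6a3 3.85, Bgn 3.45, Sparc 2.57, Tnc 3.34, Smoc2 4.30, Lama2 3.18 and Efemp1 2.78. The crosslinking gene Lox gave 3.33, and the matrix turnover genes Mmp3 and Mmp19 gave 3.81 and 3.64. Has1, a hyaluronan synthase listed with inflammatory fibroblast markers, gave 2.27. Chemokines and cytokines gave Ccl2 2.71, Ccl7 3.41, Cxcl2 2.14, Cxcl14 1.76 and Il33 3.12. Antagonists and receptors gave Sfrp1 2.83 and Pdgfra 2.79. Lipid genes gave Apod 2.11, Apoe 2.03 and Fabp4 3.15. Other stromal genes gave Clec3b 2.84, Pi16 2.92, Penk 5.30, F3 1.93, Cygb 2.81 and Serping1 3.62. Cebpd was the 1 gene of these with the smaller contrast in MG2 (-2.09).

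In 23 of the 30 listed genes given here with the larger contrast in MG2 both MG2 fibroblast sums lay above both MG1 sums, and in 25 both MG2 sums of the other cells lay below those of MG1. Over all genes tested these shares were 21.4% and 25.5%, and since the genes were chosen by a contrast that either pattern gives, the counts are a description. The part of fibroblast RNA carried into other cells was not tested.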

How the results depend on the processing

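The libraries set the limits: 1 mouse a group, 2 libraries a mouse and 20 fibroblasts in MG1 replicate 2. Against other gland cells, 919 genes were higher and 769 lower. Without a low-count filter 1627 were lower (17557 tested), and against 107 cells with 2 or more endothelial markers, a class added after seeing the data, 299 were higher and 242 lower (2410 tested). Leaving out a library gave 747 to 1267 higher and 556 to 1084 lower, the most without MG1 replicate 2. The planned endothelial class held 9 cells and none in MG1 replicate 1, so it was not run. No paired analysis was possible between MG1 and MG2 because their numbers are accession order. The 2 sums of a library were blocked, and with no replicate block 865 genes were higher and 694 lower.

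Between the mice, 6 genes were higher in MG2 and 2 lower. The counts were 31 and 15 with DESeq2, 82 and 96 without a low-count filter, 23 and 10 with the stricter gate, 15 and 8 with the looser gate, 11 and 4 without members that had 1% of other markers, and 0 to 230 and 0 to 266 when a library was left out. The cause was not tested. All 8 genes were also called under each of these settings except without MG2 replicate 1, where edgeR called 0 (165 at an unadjusted p under 0.05). The contrast that differed between the mice gave 45 and 1 genes. It gave 84 and 16 without a filter, 140 and 16 with the stricter gate, 10 lower with the looser gate, 4 lower without members that had 1% of other markers, 2 lower with DESeq2, and 9 to 162 and 0 to 82 when a library was left out (added after seeing the data). The share differed by 3.11 percentage points in place of 9.65 with the stricter gate (MG2 minus MG1 -3.11), and by -13.8 to -5.53 when a library was left out. Resolution 0.3 gave 3 clusters in place of 6.

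Of 205 genes named against other gland cells, these log2 values changed sign. The stricter gate gave Kitl -0.015 and Igfbp5 -0.51. When a library was left out, Igfbp5 ranged from -0.26 (without MG1 replicate 2) to 0.67, Wnt5a from -0.011 (without MG2 replicate 1) to 0.95, Fabp4 from -0.37 (without MG2 replicate 2; -0.36 without MG2 replicate 1) to 0.94 and Top2a from -1.51 (without MG2 replicate 2) to 1.009. DESeq2 gave Top2a -1.27, and no filter gave Fabp4 -0.001. Against the cells with endothelial markers Kitl was -1.40, Igfbp7 -0.74, Tcf4 -0.97, Fabp4 -4.53, Nfkbia -0.87, Col4a2 -0.031, Adamts4 -1.75, Timp3 -1.08, Il6st -0.59 and Icam1 -1.73. Between the mice, Postn ranged from -0.31 (without MG1 replicate 2) to 6.35 and Igfbp3 from -2.40 to 1.27 (without MG1 replicate 2).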
